A study of Arabidopsis thaliana with 32 samples.

Results

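The phenylpropanoid, lignin and flavonoid pathway was followed here as 37 genes of Arabidopsis thaliana, picked by gene identifier from a table of 27655 genes. They were picked as genes of the pathway, with earlier results of these data known. They fall into 8 genes of the shared trunk, 9 genes of the lignin branch, 8 genes of the flavonol branch, 6 genes of the anthocyanin branch and 6 transcription factor genes that control the last 2 branches. The table gives FPKM, the fragments per kilobase of exon relative to the mapped fragments of the library, so levels can be compared between genes. Of the 37 genes, 36 reached 0.5 FPKM in at least 4 libraries and were tested, and the remaining gene, PAP2, is given by its levels only.

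The pathway begins with phenylalanine ammonia-lyase (PAL1 to PAL4), which turns phenylalanine into cinnamate, followed by cinnamate 4-hydroxylase (C4H) and 4-coumarate:CoA ligase (4CL1 to 4CL3). From 4-coumaroyl-CoA, a first branch makes the lignin monomers and the sinapate esters that screen ultraviolet light in Arabidopsis leaves, and chalcone synthase (CHS) opens the other, which leads to flavonols and, through dihydroflavonol reductase (DFR), to the purple anthocyanins. In seedlings the flavonoid genes are known as light-induced genes, with MYB11, MYB12 and MYB111 acting on the flavonol genes and PAP1, PAP2 and the bHLH protein TT8 on the anthocyanin genes.

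All plants were whole seedlings of the Col-0 ecotype grown for 96 h in continuous red light of 50 µmol m-2 s-1, at 27°C or at 20°C. The genotypes were pif4-2 (a T-DNA insertion in the gene of the warmth-responsive transcription factor PIF4), hmr-22 (an allele of HEMERA, HMR, a protein needed for light signalling and for transcription in plastids), med14-2 (an insertion line of the Mediator subunit gene MED14) and Col-0 itself, the wild type. Each of the 8 groups had 4 biological replicates, and each mutant is represented by 1 line. The comparisons asked how the pathway differed between 27°C and 20°C in each genotype, how each mutant differed from Col-0 at either temperature, and whether the responses to warmth differed.

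The libraries held 11911240 to 16883322 mapped fragments. HMR was at 0.956 ± 0.289 FPKM at 27°C and 0.224 ± 0.12 FPKM at 20°C in hmr-22, against 47.9 ± 5.4 and 29.7 ± 3.09 FPKM in Col-0 (SD, n = 4 each, as in all values below). The study describes hmr-22 as a weak allele that changes an amino acid, and the near loss of HMR transcript measured here goes against that description, so values given for hmr-22 are those of the libraries so labelled. PIF4 was at 5.63 ± 1.45 FPKM in pif4-2 and 24.4 ± 1.9 FPKM in Col-0 at 27°C (log2 -1.86), but at 20°C it was at 5.47 ± 1.11 and 7.49 ± 1.78 FPKM with overlapping libraries (log2 -0.24 ± 0.20, adjusted p = 0.493), so its level bears on the pif4-2 label at 27°C only. MED14 was not lower in the libraries labelled med14-2, with 9.86 ± 2.55 FPKM at 27°C and 9.99 ± 0.326 FPKM at 20°C against 8.65 ± 0.782 and 5.73 ± 0.575 FPKM in Col-0, so the level of MED14 does not bear out that label and the directions given for these libraries rest on the label alone. Nuclear genes took 35.2 to 61.0% of the fragments of the hmr-22 libraries at 20°C and 64.4 to 74.7% at 27°C, compared with 68.0 to 82.8% and 91.9 to 93.0% in Col-0, and 55.9% in replicate 1 of med14-2 at 27°C, whose group otherwise reached 95.8%. Deposited FPKM are printed below for single libraries, and log2 changes (± SE) are from limma on FPKM scaled by trimmed means, which moves the median of all tested genes at 27°C over 20°C to 0.02 from an unscaled 0.49 in Col-0, to -0.03 from 0.41 in pif4-2, to 0.00 from 0.31 in med14-2 and to 0.18 from 0.74 in hmr-22.

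The stretch just before a gene's start is where many of its regulators bind, so the 250 bases before 6 of the genes are shown: 3 flavonol genes that fell with warmth in every genotype, 2 lignin genes, and FAH1, which stood apart in the libraries labelled med14-2. Capitals mark the G-box (CACGTG, bound by bHLH and bZIP factors, PIF4 and HY5 among them), the PIF-binding E-box (CACATG, which reads CATGTG on the other strand) and the AC elements bound by MYB factors of phenylpropanoid genes, read on either strand (AC-I spelled ACCTACC; AC-II spelled ACCAACC; AC-III spelled ACCTAAC). The sequences are from the RefSeq genome of TAIR10.1, whose coordinates equal those of TAIR10 for these genes, and run 5′ to 3′ on the strand of the gene.
CHS promoter, chr5:4488226-4488475, plus strand: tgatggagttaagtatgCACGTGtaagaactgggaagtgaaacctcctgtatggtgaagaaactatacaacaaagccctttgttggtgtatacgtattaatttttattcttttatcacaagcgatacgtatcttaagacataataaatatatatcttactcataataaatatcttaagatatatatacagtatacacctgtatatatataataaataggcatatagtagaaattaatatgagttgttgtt
CHIL promoter, chr5:1563036-1563285, plus strand: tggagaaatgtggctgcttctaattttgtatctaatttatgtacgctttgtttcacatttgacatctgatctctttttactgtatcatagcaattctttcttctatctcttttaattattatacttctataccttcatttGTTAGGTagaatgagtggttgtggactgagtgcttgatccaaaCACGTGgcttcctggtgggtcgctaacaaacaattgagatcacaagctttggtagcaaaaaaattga
F3H promoter, chr3:19024942-19025191, plus strand: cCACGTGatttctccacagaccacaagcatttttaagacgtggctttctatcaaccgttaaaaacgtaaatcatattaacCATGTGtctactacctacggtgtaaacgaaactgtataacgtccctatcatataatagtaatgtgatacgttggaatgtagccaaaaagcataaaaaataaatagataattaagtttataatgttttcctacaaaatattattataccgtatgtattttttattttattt
C3H1 promoter, chr2:17060653-17060902, minus strand: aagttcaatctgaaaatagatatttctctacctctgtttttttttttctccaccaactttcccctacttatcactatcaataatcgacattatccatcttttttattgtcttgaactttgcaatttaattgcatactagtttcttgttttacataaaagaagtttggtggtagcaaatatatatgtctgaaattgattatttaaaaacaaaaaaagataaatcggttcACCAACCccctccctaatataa
CCR1 promoter, chr1:5478353-5478602, plus strand: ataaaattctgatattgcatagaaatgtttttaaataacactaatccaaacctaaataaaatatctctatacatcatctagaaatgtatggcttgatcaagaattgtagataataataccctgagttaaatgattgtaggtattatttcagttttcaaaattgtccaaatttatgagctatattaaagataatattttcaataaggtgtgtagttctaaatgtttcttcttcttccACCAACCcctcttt
FAH1 promoter, chr4:17139778-17140027, minus strand: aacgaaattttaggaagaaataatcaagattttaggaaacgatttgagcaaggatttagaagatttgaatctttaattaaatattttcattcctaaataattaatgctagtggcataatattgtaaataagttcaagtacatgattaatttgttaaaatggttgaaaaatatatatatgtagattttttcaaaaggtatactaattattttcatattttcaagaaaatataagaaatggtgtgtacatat
The G-box lay 233 bases before the start of CHS, 67 bases before that of CHIL and 249 bases before that of F3H. In windows of the same length it was found before 8 of the 37 members (21.6%) and before 1780 of 27443 nuclear coding genes (6.49%), and among the branches before 3 of 8 flavonol, 2 of 6 anthocyanin and 0 of 9 lignin members. An AC element was found before 5 of 9 lignin members (HCT, C3H1, CCR1 and CAD5 with AC-II, CCoAOMT1 with AC-I), before 10 of 37 members in all (27.0%) and before 6.12% of nuclear coding genes. CACATG was found before 3 members (8.1%) and before 11.09% of nuclear coding genes. These are matches of letters, and the window of FAH1 held none of them. That of PAL1, not shown, also held none, although PAL1 too fell with warmth in every genotype.

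Between 4 and 6 of the 8 flavonol genes were lower at 27°C than at 20°C in each of the 4 genotypes. Of 36 tested members, 12 were called lower and 0 higher at 27°C in pif4-2, where 2.70% of all tested genes were called lower and 3.00% higher. In hmr-22, 9 were lower and 1 was higher (8.30% and 13.8% of all tested genes), in the libraries labelled med14-2 7 were lower and 0 higher (2.83% and 1.62%), and in Col-0 10 were lower and 0 higher (2.99% and 2.24%). Members were called where the adjusted p lay under 0.001, the fold reached 2 and the higher of the group means exceeded 1 FPKM. At an unadjusted p under 0.05, limma gave 2 members higher in pif4-2, 0 in med14-2 and 1 in Col-0, and voom on the recovered fragments called 0 higher in each of these. Counts at an unadjusted p, here and below, have no share of all tested genes beside them, so they do not set the members apart from other genes. The median log2 change of the members was -1.0 in pif4-2, -0.33 in hmr-22, -0.75 in med14-2 and -0.87 in Col-0. Without scaling the lower calls numbered 5, 3, 5 and 3 in that order of genotypes, and 6 members were called higher in hmr-22.

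By branch, the median change with warmth (pif4-2, hmr-22, med14-2 and Col-0 in turn) was -1.45, -1.37, -1.42 and -1.51 for the 8 flavonol members, against 0.10, -0.53, -0.20 and -0.35 for the 9 lignin members and -0.50, -0.65, -0.46 and -0.59 for the 8 shared members (log2, scaled). Flavonol members made up 5 of the 12 lower calls in pif4-2, 4 of 9 in hmr-22, 4 of 7 in med14-2 and 6 of 10 in Col-0. In each genotype 1 to 2 of the 9 lignin members were called lower and 0 higher. At an unadjusted p under 0.05, 2 lignin members were higher in pif4-2, 2 in hmr-22, 0 in med14-2 and 1 in Col-0. The lignin branch therefore held a smaller share of the calls than its number of members, while 4 members were called lower in every genotype: PAL1, CHS, CHIL and F3H. Another 4 were called lower in 3 genotypes, 1 in 2 genotypes, 8 in 1 genotype, and 20, PAP2 among them, in none.

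**Figure D1:**
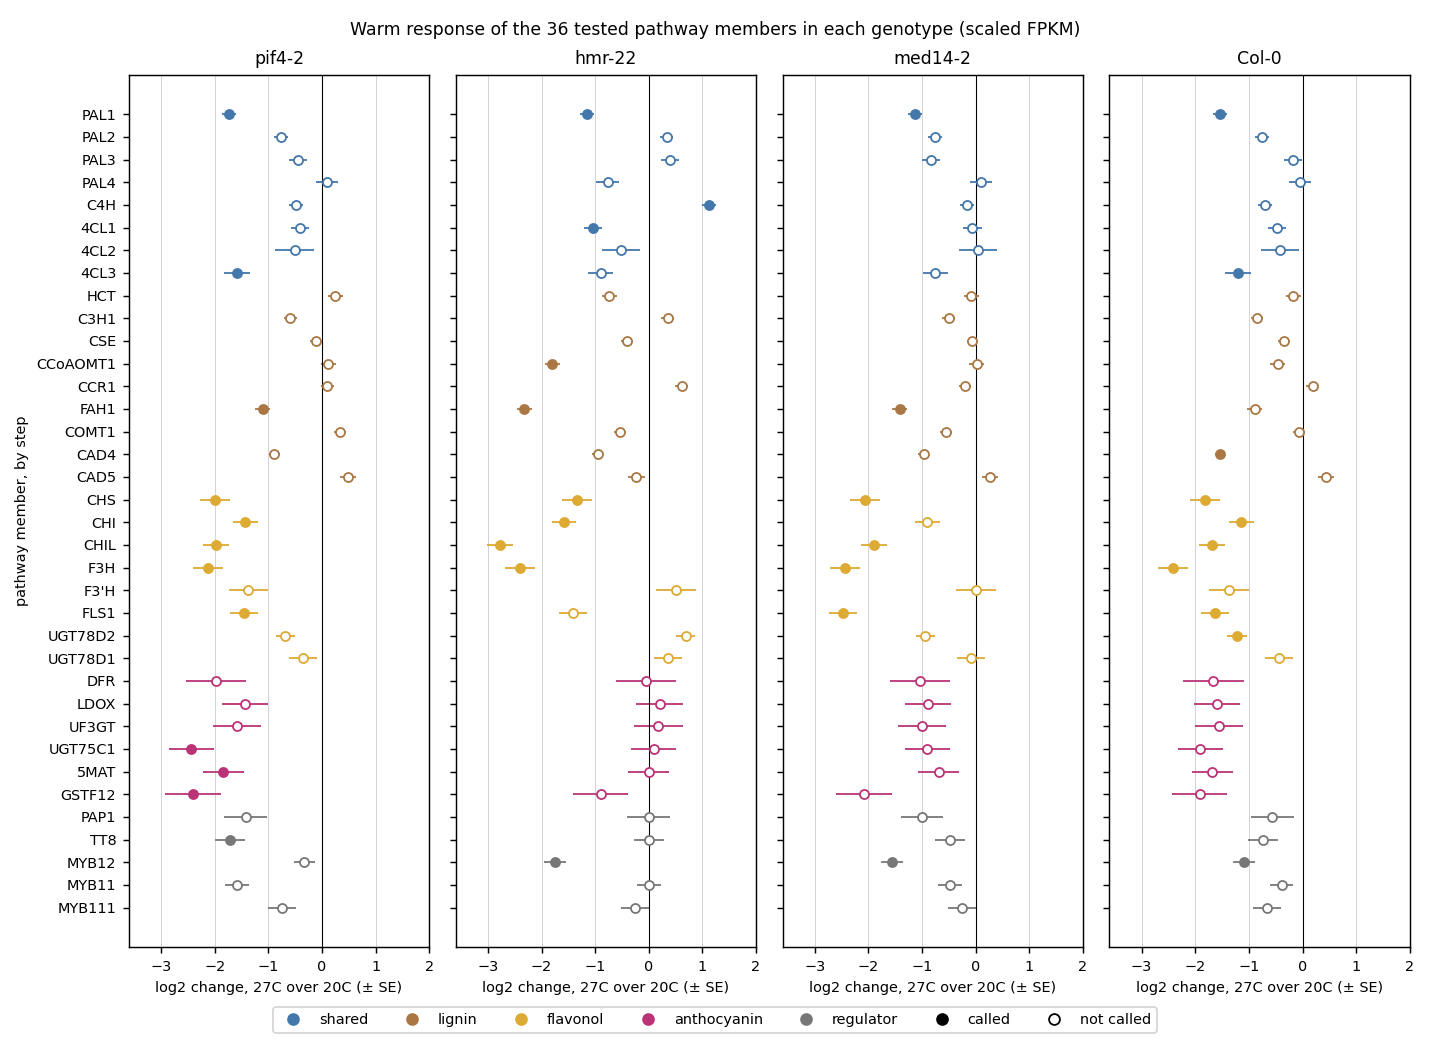
Change at 27°C over 20°C of the 36 tested members in pif4-2, hmr-22, med14-2 and Col-0, as log2 of scaled FPKM (x axis, points with SE) for each gene (y axis, coloured by branch, filled where called). The flavonol genes CHS, CHIL and F3H lie between -2.78 and -1.34 in all 4 panels, while the lignin genes spread on both sides of 0.

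CHS (AT5G13930, chr5:4488476-4490264, plus strand), the entry enzyme of the flavonoid branch, had the highest mean level of the flavonol members over all libraries. It had 36.7, 79.5, 164 and 155 FPKM at 27°C and 135, 302, 378 and 319 FPKM at 20°C in pif4-2. In the libraries labelled med14-2 it had 29.2, 53, 69.4 and 86.3 FPKM at 27°C and 161, 183, 179 and 214 FPKM at 20°C. In Col-0 it had 108, 92, 107 and 91.7 FPKM at 27°C and 251, 253, 174 and 336 FPKM at 20°C. The deposited values of the 2 temperatures overlapped in pif4-2, through replicate 1 at 20°C, and in hmr-22, but not in med14-2 or Col-0, and after scaling they did not overlap in any genotype. The log2 change was -1.99 ± 0.28 in pif4-2 (adjusted p = 2.61e-06), -1.34 ± 0.28 in hmr-22 (0.000126), -2.07 ± 0.28 in med14-2 (1.47e-06) and -1.82 ± 0.28 in Col-0 (9.85e-06).

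F3H (AT3G51240, chr3:19025192-19026872, plus strand), flavanone 3-hydroxylase, makes the dihydroflavonols that both flavonols and anthocyanins are built from. In Col-0 it had 14.1, 10.3, 10.2 and 9.08 FPKM at 27°C, against 44.9, 45.9, 29.1 and 48.5 FPKM at 20°C. It changed by -2.12 ± 0.28 in pif4-2, -2.41 ± 0.28 in hmr-22, -2.43 ± 0.28 in med14-2 and -2.41 ± 0.28 in Col-0 (log2), and its temperature groups did not overlap in any genotype after scaling. CHIL (AT5G05270), a chalcone isomerase-like protein that helps CHS without being an enzyme itself, changed by -1.98 ± 0.24, -2.78 ± 0.24, -1.90 ± 0.24 and -1.69 ± 0.24 in the same order of genotypes. Without scaling F3H was still called in Col-0, together with PAL1 and CAD4, and CHS and CHIL were not.

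The rest of the flavonol branch was less uniform. FLS1, flavonol synthase, fell by 1.46 ± 0.26 in pif4-2, by 2.48 ± 0.26 in med14-2 and by 1.64 ± 0.26 in Col-0 on the log2 scale, while in hmr-22 it was at 0.432 ± 0.272 FPKM at 27°C and 0.786 ± 0.45 FPKM at 20°C and was not called. CHI, chalcone isomerase, fell in pif4-2, hmr-22 and Col-0 (log2 -1.43, -1.58 and -1.14), but its Col-0 call was lost without any 1 of 7 of the 8 Col-0 libraries, all but replicate 3 at 20°C (log2 -1.18 to -1.09, adjusted p 0.00104 to 0.00228). UGT78D2, which attaches glucose to flavonols and anthocyanidins, was called lower in Col-0 only (log2 -1.22 ± 0.18), and its difference of response from Col-0 was called in hmr-22 and not in pif4-2 or med14-2. UGT78D1, which attaches rhamnose to flavonols, was not called in any genotype, with deposited levels of 40.8 ± 5.31 FPKM at 27°C and 40.1 ± 12.5 FPKM at 20°C in Col-0. After scaling these libraries were at 21.1 to 29.1 and 26.9 to 45.2 FPKM.

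In the shared trunk the 4 PAL genes did not move as a unit. PAL1 (AT2G37040, chr2:15557367-15560755, minus strand) had 60.8, 60.6, 63.8 and 68.6 FPKM at 27°C in Col-0 and 132, 128, 97.9 and 171 FPKM at 20°C. It fell by 1.73 ± 0.13, 1.15 ± 0.13, 1.13 ± 0.13 and 1.54 ± 0.13 on the log2 scale in pif4-2, hmr-22, med14-2 and Col-0, and the temperature groups did not overlap in any of them after scaling. Within each library, where scaling cancels, PAL1 made up 47.7 ± 3.37% of the summed PAL1 to PAL4 FPKM at 27°C and 65.3 ± 1.34% at 20°C in pif4-2, 11 ± 1.33% and 25.5 ± 5.28% in hmr-22, 47.8 ± 1.31% and 55.6 ± 1.43% in med14-2, and 46.6 ± 0.44% and 62.1 ± 2.12% in Col-0. The ranges at the 2 temperatures were apart in every genotype, and in hmr-22 PAL2 and not PAL1 was the highest PAL gene at both temperatures.

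C4H (AT2G30490) was called in hmr-22 only, where it rose by 1.12 ± 0.13 on the log2 scale (36.9 ± 10.1 FPKM at 27°C, 9.58 ± 4.05 FPKM at 20°C), whereas its deposited Col-0 levels were 106 ± 4.33 FPKM at 27°C and 122 ± 24.4 FPKM at 20°C. After scaling its Col-0 libraries were at 59.3 to 66.9 FPKM at 27°C and 94.3 to 123 FPKM at 20°C, lower with warmth though not called. Of the ligases, 4CL3, the form tied to flavonoid synthesis, fell in pif4-2 (log2 -1.59 ± 0.24) and Col-0 (log2 -1.20 ± 0.24), and 4CL1 in hmr-22 (log2 -1.04 ± 0.17). The Col-0 call of 4CL3 was lost without replicate 1, 2 or 4 at 20°C or replicate 1, 2 or 3 at 27°C (log2 -1.22 to -1.07, adjusted p 0.00117 to 0.00302), and the hmr-22 call of 4CL1 without replicate 2 at 20°C (log2 -0.90) or replicate 1 at 27°C (log2 -0.80). The ratio of CHS to C4H within a library was 0.911 ± 0.424 at 27°C and 2.36 ± 0.576 at 20°C in pif4-2, 0.202 ± 0.0382 and 1.13 ± 0.149 in hmr-22, 0.532 ± 0.0925 and 1.98 ± 0.139 in med14-2, and 0.942 ± 0.105 and 2.06 ± 0.273 in Col-0. It was lower at 27°C in all 4 genotypes, with no overlap between temperatures.

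In the lignin branch, CAD4 (AT3G19450) was the member called lower in Col-0, by 1.54 ± 0.10 on the log2 scale (adjusted p = 2.52e-12), with 45.1, 50.7, 46 and 46.2 FPKM at 27°C and 95.7, 90.6, 83.4 and 120 FPKM at 20°C. CAD4 and CAD5 both encode cinnamyl alcohol dehydrogenases, which make the alcohols that polymerise into lignin. CAD5 was not called in Col-0, with deposited levels of 24.8 ± 2.77 FPKM at 27°C and 12.9 ± 1.94 FPKM at 20°C. After scaling its Col-0 libraries were at 12.7 to 16.8 FPKM at 27°C and 9.13 to 12.2 FPKM at 20°C. The CAD5 to CAD4 ratio within a Col-0 library was 0.528 ± 0.0657 at 27°C against 0.133 ± 0.0187 at 20°C, and this includes the fall of CAD4. FAH1, ferulate 5-hydroxylase, needed for syringyl lignin and for sinapate esters, fell in pif4-2 (log2 -1.10 ± 0.14), hmr-22 (-2.32 ± 0.14) and med14-2 (-1.42 ± 0.14), and in Col-0 it changed by -0.89 ± 0.14 (adjusted p = 1.26e-05), short of the required fold. CCoAOMT1, a caffeoyl-CoA methyltransferase, fell in hmr-22 (log2 -1.80 ± 0.14), where it was at 9.20 ± 2.36 FPKM at 27°C and 17.8 ± 4.9 FPKM at 20°C.

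**Figure D2:**
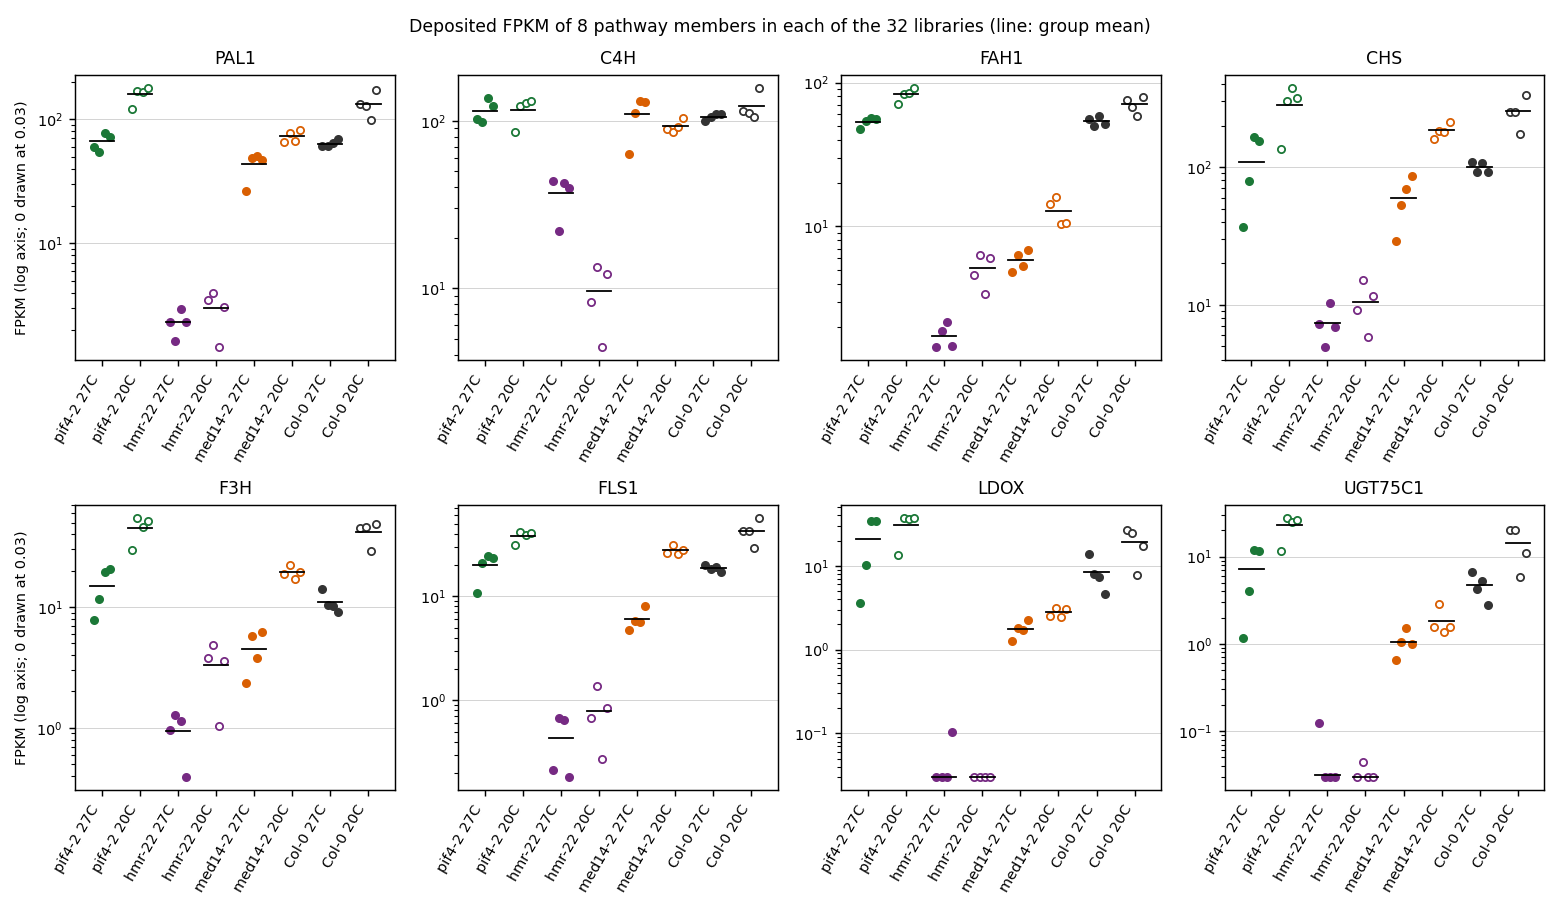
Deposited FPKM (y axis, log scale, zeros drawn at 0.03) of PAL1, C4H, FAH1, CHS, F3H, FLS1, LDOX and UGT75C1 in the 32 libraries, by group (x axis, filled points 27°C, open points 20°C, line the group mean of 4). FAH1 in med14-2 lies at 4.81 to 6.81 FPKM at 27°C against 49.5 to 58.8 FPKM in Col-0, and LDOX and UGT75C1 are at or near 0 in hmr-22.

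Of the 6 anthocyanin members, 3 fell with warmth in pif4-2, namely UGT75C1, 5MAT and GSTF12 (log2 -2.44 ± 0.42, -1.84 ± 0.38 and -2.40 ± 0.52). UGT75C1 adds a glucose to anthocyanins, 5MAT adds a malonyl group, and GSTF12 is needed to bring them into the vacuole. In Col-0 0 of 6 were called, with a median log2 change of -1.67, but 6 of 6 were lower at an unadjusted p under 0.05 and voom called 3. The calls in pif4-2 were not firm, since GSTF12 lost its call without replicate 1, 2, 3 or 4 at 20°C or replicate 1 or 2 at 27°C (log2 -2.50 to -1.83, adjusted p 0.0014 to 0.00577) and 5MAT without replicate 2, 3 or 4 at 20°C or replicate 1 or 2 at 27°C (log2 -1.82 to -1.38, adjusted p 0.0017 to 0.00395).

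Transcript levels of the anthocyanin members varied widely among replicates of pif4-2 and Col-0, and the members of the branch moved together within these groups. In med14-2 at 27°C the lowest and the highest library differed between members. DFR had 3.14, 10.8, 40.6 and 37 FPKM at 27°C in pif4-2 and 20.2, 53.5, 53.2 and 61.5 FPKM at 20°C, and in Col-0 19.3, 10.9, 8.66 and 5.08 FPKM at 27°C and 33.8, 36.2, 9.44 and 21.8 FPKM at 20°C. After scaling, replicate 1 of pif4-2 was the lowest of 4 for 6 of 6 anthocyanin members at both temperatures, replicate 3 of Col-0 at 20°C was the lowest for 6 of 6, and replicate 1 of Col-0 at 27°C the highest for 6 of 6. The flavonol members followed the same libraries, with pif4-2 replicate 1 lowest for 8 of 8 at 27°C and 7 of 8 at 20°C, and Col-0 replicate 3 at 20°C lowest for 8 of 8. In whole seedlings, fewer cells of a type and less RNA per cell cannot be told apart.

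Among the regulators, MYB12, an activator of CHS, F3H and FLS1, fell in hmr-22 (log2 -1.75 ± 0.20), med14-2 (-1.56 ± 0.20) and Col-0 (-1.09 ± 0.20). In pif4-2 it was not called, with deposited levels of 2.14 ± 0.496 FPKM at 27°C and 2.00 ± 0.495 FPKM at 20°C. After scaling the pif4-2 libraries were at 1.15 to 1.69 FPKM at 27°C and 1.58 to 2.37 FPKM at 20°C, and the difference of response from Col-0 was not called. The Col-0 call was lost without replicate 1 at 27°C (log2 -0.94, adjusted p = 0.00135) and the hmr-22 call without replicate 2 at 20°C (log2 -1.71), where the larger group mean no longer exceeded 1 FPKM. TT8 fell in pif4-2 (log2 -1.71 ± 0.28). MYB111 was the highest of the 3 flavonol MYB genes in Col-0, with 4.81 ± 0.637 FPKM at 27°C and 5.59 ± 1.07 FPKM at 20°C. PAP2 was at 0.574 ± 0.273 FPKM at 27°C and 0.184 ± 0.201 FPKM at 20°C in Col-0, levels of few fragments, and it has near relatives beside it on the chromosome, so fragments could be shared between them.

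The balance between branches, taken as the share of each in the summed FPKM of the 37 genes, shifted to lignin at 27°C in 3 genotypes. Flavonol genes held 16.5 ± 5.33% at 27°C and 30.3 ± 3.95% at 20°C in pif4-2, 12.4 ± 1.52% and 16.8 ± 0.722% in hmr-22, 15.3 ± 1.37% and 29.0 ± 0.694% in med14-2, and 18.6 ± 1.58% and 29.9 ± 2.61% in Col-0. Lignin genes held 56.8 ± 7.20% at 27°C and 35.7 ± 4.46% at 20°C in pif4-2, 57.5 ± 0.782% and 46.1 ± 1.02% in med14-2, and 53.0 ± 2.02% and 38.9 ± 3.61% in Col-0. In hmr-22 the lignin share was 63.2 ± 3.56% at 27°C and 68.5 ± 1.20% at 20°C, and the shared trunk held 24.1 ± 3.28% and 13.9 ± 0.606%. These shares do not depend on scaling between libraries, and the flavonol share at 27°C did not overlap that at 20°C in any genotype. Without the highest member of each branch, CHS among them, it did overlap in hmr-22. The summed FPKM were 1410 ± 211 at 27°C and 1680 ± 319 at 20°C in pif4-2, 245 ± 31.9 and 170 ± 55.9 in hmr-22, 972 ± 256 and 1170 ± 82.7 in med14-2, and 1240 ± 24.0 and 1630 ± 286 in Col-0.

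**Figure D3:**
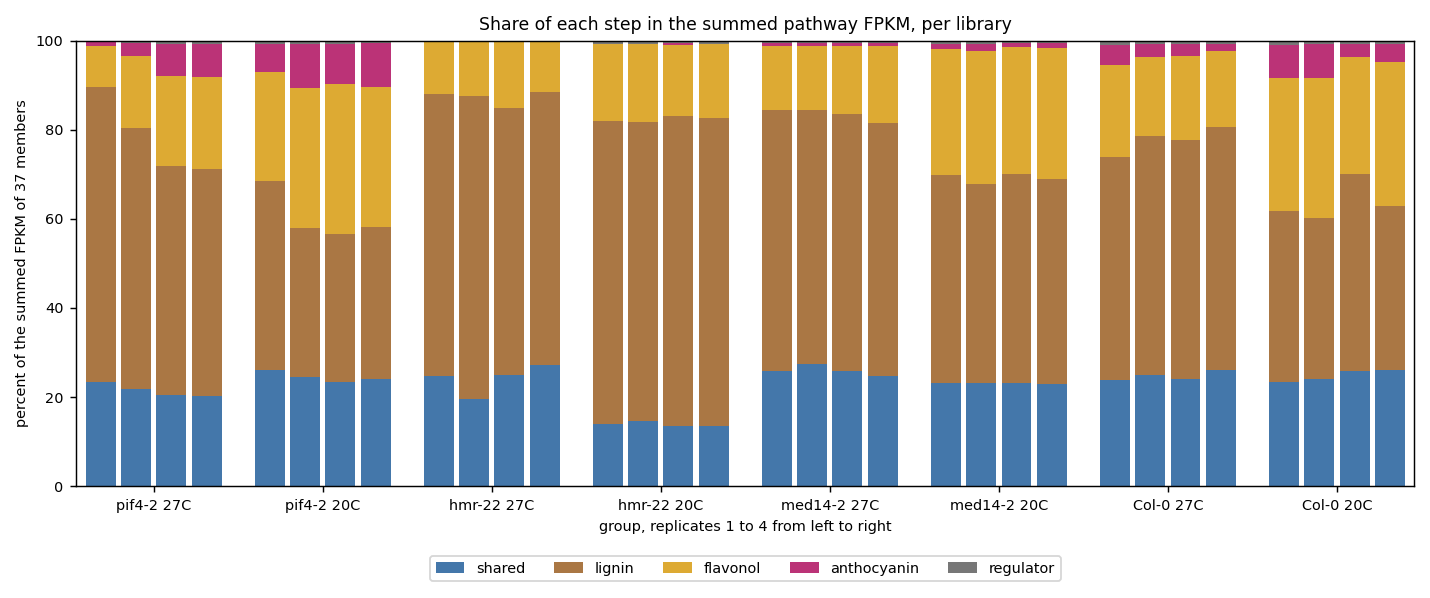
Share of the shared, lignin, flavonol, anthocyanin and regulator genes in the summed FPKM of the 37 members (y axis, percent) for every library (x axis, 4 replicates per group, 27°C left of 20°C within a genotype). The flavonol part averages 15.3 to 18.6% at 27°C in pif4-2, med14-2 and Col-0 and 29.0 to 30.3% at 20°C, and the anthocyanin part is at most 0.331% in any hmr-22 library.

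In pif4-2 against Col-0, 0 of 36 members were called at 27°C, where 1.10% of all tested genes were called lower and 3.38% higher. At 20°C 0 were called as well, beside 0.105% lower and 0.677% higher of all tested genes. At an unadjusted p under 0.05, limma gave 12 members higher and 3 lower at 27°C and 10 higher and 1 lower at 20°C, and voom called 0 at either temperature. The shares above are of calls and are no background for these unadjusted counts. The median log2 difference of the members was 0.26 at 27°C and 0.25 at 20°C. COMT1, a methyltransferase of the lignin branch, was at 266 ± 28.2 FPKM in pif4-2 and 204 ± 12.7 FPKM in Col-0 at 27°C (log2 0.60 ± 0.11, adjusted p = 0.000161), below the required fold. LDOX, leucoanthocyanidin dioxygenase, had 3.55, 10.3, 34.3 and 34.2 FPKM in pif4-2 and 13.8, 7.95, 7.28 and 4.58 FPKM in Col-0 at 27°C. These groups overlapped, and the log2 difference of 1.08 ± 0.43 had an adjusted p of 0.0549.

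The hmr-22 libraries showed the largest departure from Col-0 of the 3 mutants in number of members called. At 27°C 21 of 36 were called lower and 3 higher, where 24.0% of all tested genes were called lower and 23.6% higher, and at 20°C 25 were lower and 1 higher, beside 28.0% lower and 21.5% higher. The members' median log2 difference was -2.02 at 27°C and -1.81 at 20°C, against -0.13 and -0.29 over all tested genes. Without scaling these medians of all genes were -1.45 and -1.69, and 30 and 33 members were lower and 0 higher. All 6 anthocyanin members and 6 of 8 flavonol members were called lower at both temperatures.

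Transcripts of the late anthocyanin genes were hardly found in hmr-22. LDOX (AT4G22880, chr4:12004726-12006209, minus strand) had 2 fragments in the 4 hmr-22 libraries at 27°C against 701 in Col-0, a ratio per mapped fragment of 329 in favour of Col-0 (95% interval 90.7 to 2720, counting error only), or of 110 after scaling (30.2 to 907). At 20°C it had 0 fragments in hmr-22 and 1500 in Col-0, which makes it at least 504-fold lower in hmr-22 per mapped fragment, or at least 132-fold lower after scaling, taking 3 fragments over the group as the floor. 5MAT had 0 fragments in all 8 hmr-22 libraries and was at least 65.7-fold lower at 27°C and at least 181-fold lower at 20°C per mapped fragment (21.9 and 47.4 after scaling). The fitted values of these genes depend on the pseudocount and are not bounds.

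The regulators of the anthocyanin branch were also at 0 fragments in hmr-22, and the flavonol regulators MYB11 and MYB111 were at or near 0. PAP1 and TT8 had 0 fragments in all 8 hmr-22 libraries, and PAP1 was at least 48.2-fold lower at 27°C and at least 56.8-fold lower at 20°C per mapped fragment (16.1 and 14.9 after scaling), TT8 at least 28.2-fold and 42.0-fold lower (9.38 and 11 after scaling). MYB11 likewise had 0 fragments. MYB111 had 1 fragment at 27°C and 3 at 20°C in hmr-22, against 464 and 508 in Col-0, ratios per mapped fragment of 435 (95% interval 77.8 to 17200) and 171 (58.1 to 830) in favour of Col-0, or of 145 (25.9 to 5750) and 44.7 (15.2 to 217) after scaling. MYB12, by contrast, was at 0.478 ± 0.0997 FPKM at 27°C and 1.10 ± 0.413 FPKM at 20°C in hmr-22 and was not called against Col-0.

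Low levels in hmr-22 did not extend to every member, and the lignin branch was split. Its members CCoAOMT1, FAH1, COMT1, CAD4 and CSE lay below all Col-0 libraries at both temperatures after scaling. At 27°C the scaled FPKM of COMT1 was 32.4 to 38.1, where Col-0 had 110 to 130. That of FAH1 was 2.36 to 4.2, where Col-0 had 28 to 36. Members that were level or higher are given next. HCT, which opens the lignin branch, was at 29.2 ± 5.02 FPKM at 27°C in hmr-22 and 82.4 ± 5.17 FPKM in Col-0, and after scaling at 52.5 and 48.6 (log2 0.09 ± 0.14, not called). C3H1 and CCR1, the next hydroxylase and the first reductase of monolignol synthesis, and UGT78D2 were called higher in hmr-22 at 27°C (log2 1.42 ± 0.12, 1.28 ± 0.12 and 1.46 ± 0.18), but without scaling they were at -0.16, -0.30 and -0.12, and scaled to the total of nuclear genes at 0.06, -0.08 and 0.10. CAD5, called higher at 20°C (log2 1.02 ± 0.15), was at -0.90 without scaling and at -0.61 by nuclear total, and it lost the call without replicate 1 or 4 of hmr-22 or replicate 1 or 2 of Col-0 at 20°C (log2 0.93 to 0.98). PAL3 lost its lower call at 20°C without hmr-22 replicate 3 (log2 -0.97), and TT8 without Col-0 replicate 1 or 2 (log2 -1.97 and -1.98). Within libraries, UGT78D2 stood at 2.24 ± 0.448 times the FPKM of CHS at 27°C and 0.531 ± 0.0269 times at 20°C in hmr-22, against 0.172 ± 0.0158 and 0.115 ± 0.0155 times in Col-0.

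**Figure D4:**
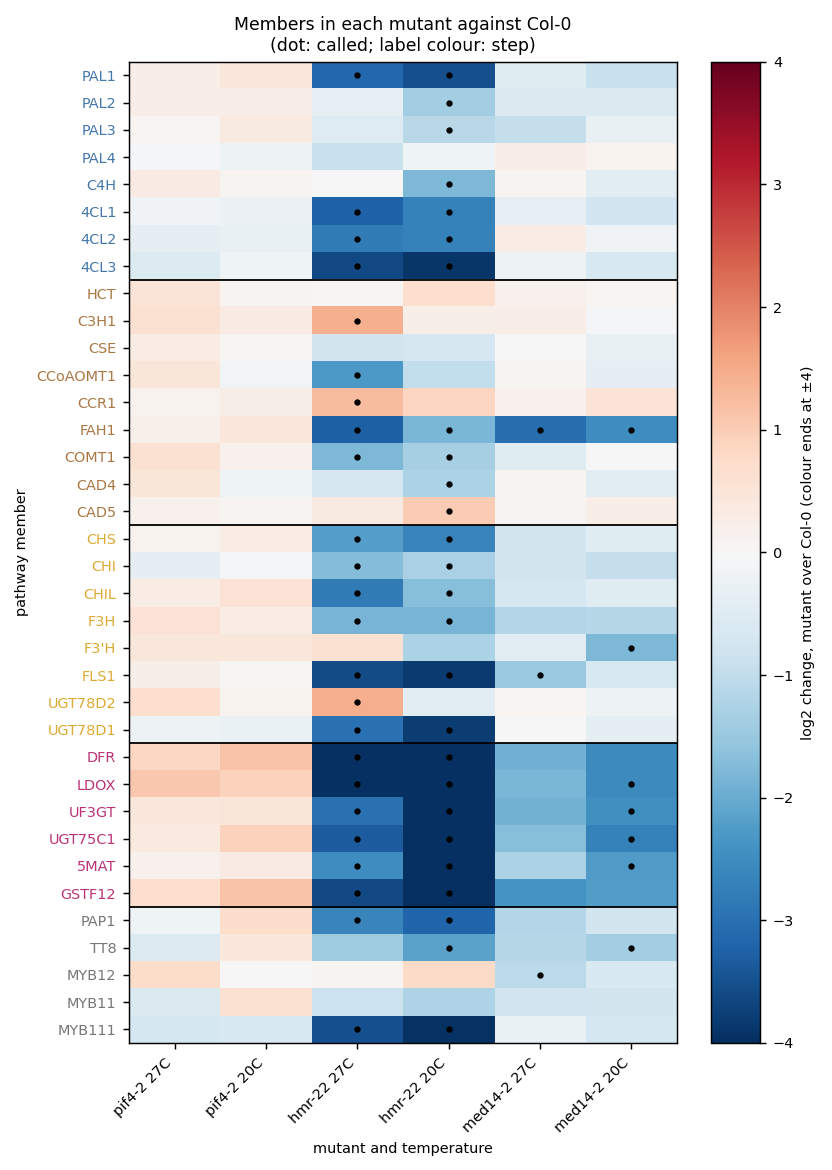
Log2 change of scaled FPKM in each mutant over Col-0 (colour, ends at ±4) for the 36 tested members (y axis, grouped by branch) at 27°C and 20°C (x axis), with a dot where called. The pif4-2 columns hold no dot, the hmr-22 columns hold 24 and 26, and the med14-2 columns hold 3 at 27°C and 7 at 20°C.

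FAH1 (AT4G36220, chr4:17137313-17139777, minus strand) stood apart in the libraries labelled med14-2. It had 4.81, 6.28, 5.28 and 6.81 FPKM there at 27°C against 55.5, 49.5, 58.8 and 51.3 FPKM in Col-0. At 20°C it had 14.3, 16.1, 10.4 and 10.6 FPKM, against 75.2, 67.9, 58.7 and 79.5 FPKM in Col-0. The groups were far apart at both temperatures, with a log2 difference of -3.02 ± 0.14 at 27°C (8.13-fold lower, adjusted p = 3.31e-16) and -2.49 ± 0.14 at 20°C (5.62-fold lower, adjusted p = 8.09e-14). Within libraries, the FAH1 to C4H ratio was 0.0563 ± 0.0149 at 27°C and 0.141 ± 0.0397 at 20°C in med14-2, against 0.509 ± 0.0436 and 0.583 ± 0.0654 in Col-0. The other lignin members were not called in either comparison, COMT1, which acts on the product of FAH1, changing by -0.49 ± 0.11 at 27°C (adjusted p = 0.00268) and -0.02 ± 0.11 at 20°C.

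At 20°C the libraries labelled med14-2 had 7 members called lower than Col-0 and 0 higher, where 0.717% of all tested genes were called lower and 1.24% higher. Beside FAH1 these were 4 of the 6 anthocyanin members (LDOX, UF3GT, UGT75C1 and 5MAT, log2 -2.71 to -2.26), F3'H (log2 -1.81 ± 0.37), the hydroxylase that sets quercetin apart from kaempferol, and TT8 (log2 -1.40 ± 0.28). LDOX had 2.5, 3.16, 2.48 and 3.09 FPKM in med14-2 at 20°C and 26.9, 24.8, 7.68 and 17 FPKM in Col-0, so the groups did not overlap although Col-0 replicate 3 lay well below the other Col-0 libraries. DFR, at 3.97 ± 1.83 FPKM against 25.3 ± 12.3 FPKM in Col-0, missed the threshold (log2 -2.56 ± 0.56, adjusted p = 0.00208). At an unadjusted p under 0.05, 1 member was higher by limma, and voom called 0 higher and 6 lower.

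The calls of FAH1, LDOX and UGT75C1 at 20°C were kept without any 1 library, and the other 4 were not. F3'H lost its call without any 1 library of these groups but Col-0 replicate 3 (log2 -1.90 to -1.63, adjusted p 0.00165 to 0.00723), UF3GT without med14-2 replicate 3 or 4 or Col-0 replicate 1 or 2 (log2 -2.41 to -2.26, adjusted p 0.0014 to 0.00226), 5MAT without med14-2 replicate 4 or Col-0 replicate 1 or 2 (log2 -2.04), and TT8 without med14-2 replicate 2, 3 or 4 or Col-0 replicate 1 or 2 (log2 -1.44 to -1.20). The number of lower calls was 3 when the fit held just these groups, and 3 to 7 with 1 library left out. In a fit without the hmr-22 libraries, added after the data were seen, UF3GT and TT8 were not called (adjusted p = 0.00161 and 0.00125).

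At 27°C the libraries labelled med14-2 had 3 members lower and 0 higher than Col-0, where 1.85% of all tested genes were called lower and 1.38% higher. Beside FAH1 these were FLS1 (AT5G08640) and MYB12 (AT2G47460). FLS1 had 4.78, 5.73, 5.61 and 8.1 FPKM in med14-2 and 19.9, 18.2, 19.2 and 17.3 FPKM in Col-0, groups that did not overlap (log2 -1.47 ± 0.26, adjusted p = 0.000141). MYB12 had 0.543, 0.381, 0.181 and 0.374 FPKM in med14-2 and 0.815, 1.33, 1.75 and 1.47 FPKM in Col-0 (log2 -1.07 ± 0.20), with an overlap after scaling, and its call was lost without replicate 2, 3 or 4 of either group (log2 -1.08 to -0.92, adjusted p 0.00108 to 0.00287). The median log2 difference over the members was -0.53 at 27°C and -0.62 at 20°C. All 6 anthocyanin members were lower at an unadjusted p under 0.05 at 27°C and 0 of them were called, while a fit restricted to these groups called LDOX (log2 -1.84, adjusted p = 0.000672), UF3GT (-1.90, 0.000241), UGT75C1 (-1.70, 0.000654) and GSTF12 (-2.39, 0.000126) lower. In the fit without hmr-22, F3H was also called lower at 27°C (log2 -1.16, adjusted p = 0.000165) and 20°C (log2 -1.14, adjusted p = 0.000235), and GSTF12 at 27°C (log2 -2.39, adjusted p = 0.000578). Replicate 1 of med14-2 at 27°C, the library with 55.9% nuclear fragments, did not carry the 3 calls, as FAH1, FLS1 and MYB12 were at -3.10, -1.53 and -1.27 without it.

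Whether the response to warmth itself differed from that of Col-0 was tested at an adjusted p under 0.05. In pif4-2, 1 member responded more positively (CAD4, log2 difference 0.65 ± 0.14, adjusted p = 0.00651) and 1 more negatively (MYB11, -1.19 ± 0.30, adjusted p = 0.0265), where 1.54% and 0.943% of all tested genes did. MYB11 was at 0.0834 ± 0.0795 FPKM at 27°C and 0.703 ± 0.211 FPKM at 20°C in pif4-2, against 0.36 ± 0.212 and 0.432 ± 0.199 FPKM in Col-0, and 8 libraries each ended its call when left out: pif4-2 replicates 1 and 3 at 20°C and 2 and 4 at 27°C, and Col-0 replicates 3 and 4 at 20°C and 1 and 4 at 27°C (log2 -1.18 to -1.02, adjusted p 0.0519 to 0.0766). In med14-2, CAD4 alone was called higher (0.57 ± 0.14, adjusted p = 0.0087) and 0 lower, beside 2.03% and 4.37% of all tested genes. For the lower direction there limma gave 5 members at an unadjusted p under 0.05 and voom called 4. FAH1, the member furthest from Col-0 in these libraries, had a difference of response of -0.53 ± 0.20 (adjusted p = 0.116), and -0.53 with an adjusted p of 0.0301 in the fit without hmr-22.

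In hmr-22 11 members responded more positively than in Col-0 and 7 more negatively, beside 29.0% and 16.5% of all tested genes, so both counts were near the background. C4H (1.82 ± 0.19), UGT78D2 (1.92 ± 0.25), C3H1 (1.20 ± 0.17) and PAL2 (1.09 ± 0.19) responded more positively, as did F3'H, CCR1, CAD4, LDOX, UF3GT, UGT75C1 and 5MAT. The last 4 of these were near 0 fragments in hmr-22 at both temperatures, so their fitted differences of 1.68 to 2.00 depend on the pseudocount. FAH1 (-1.43 ± 0.20), CCoAOMT1 (-1.34 ± 0.20), CHIL (-1.09 ± 0.34), PAL4, CAD5, HCT and COMT1 responded more negatively. The calls of PAL4 and CCR1 were lost without any 1 of 12 and 10 of the 16 libraries (log2 -0.74 to -0.61 and 0.31 to 0.45, adjusted p 0.0525 to 0.106 and 0.0523 to 0.122), that of UF3GT without hmr-22 replicate 4 at 27°C or Col-0 replicates 1 or 2 at 20°C or 4 at 27°C (log2 1.53 to 1.57), and that of COMT1 without hmr-22 replicate 2 at 20°C (log2 -0.36).

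The genes around the 37 members were read from lists put together with earlier results of these data known. A list of 5 kelch-repeat F-box genes gave the largest values. KFB01, KFB20 and KFB50 are known to mark PAL proteins for degradation in Arabidopsis, and the list also held KMD3 and AT1G23390. In the libraries labelled med14-2, 5 of 5 were called lower at 27°C than at 20°C (log2 -2.23 to -1.02) and 5 of 5 lower than Col-0 at 27°C (log2 -2.10 to -1.07), and 5 of 5 responded to warmth more negatively than in Col-0 (log2 -3.63 to -0.85). Of all tested genes, 2.83%, 1.85% and 4.37% were called in these directions in turn. KFB20 had 1.37, 3.02, 4.15 and 3.56 FPKM at 27°C and 9.55, 8.06, 14.3 and 14.5 FPKM at 20°C in med14-2, against 8.94, 8.59, 19 and 19 FPKM and 2.42, 3.34, 3.7 and 3.35 FPKM in Col-0. The direction with temperature was thus opposite in the 2 genotypes, with no overlap in either. Without replicate 1 of med14-2 at 27°C, KFB50 was no longer called with warmth (log2 -0.93), KFB01 and AT1G23390 no longer against Col-0 (log2 -0.97 and -1.23), and KFB01 no longer in the difference (log2 -0.75). Without scaling, KFB50 was not called with warmth either (log2 -0.69). The whole list and MYBL2 are named because of their values, which were seen first.

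In hmr-22 the same 5 genes were called higher than in Col-0 at both temperatures (log2 3.18 to 5.86 at 27°C, 2.00 to 6.76 at 20°C). Of all tested genes, 23.6% were called higher at 27°C and 21.5% at 20°C. Without scaling 4 of the 5 F-box genes were still called higher at 20°C, with KFB01 at 0.07. KFB20 was at 258 ± 19.6 FPKM at 27°C and 99.6 ± 31.2 FPKM at 20°C in hmr-22, against 13.9 ± 5.92 and 3.20 ± 0.548 FPKM in Col-0. MYBL2, a repressor of anthocyanin genes in a list of 12 other anthocyanin regulators, was also higher in hmr-22 (log2 3.91 at 27°C, 4.36 at 20°C), and in med14-2 it was at 0.619 ± 0.244 FPKM at 27°C and 2.28 ± 0.312 FPKM at 20°C against 6.35 ± 1.58 and 1.69 ± 0.603 FPKM in Col-0 (log2 difference of response -3.03 ± 0.43, adjusted p = 1.16e-05). Of the 10 tested regulators in that list 5 were higher and 1 was lower in hmr-22 at either temperature, beside 23.6% higher and 24.0% lower of all tested genes at 27°C and 21.5% and 28.0% at 20°C, and HYH, a bZIP factor of light signalling, was higher in pif4-2 than Col-0 at 27°C (log2 1.51).

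**Figure D5:**
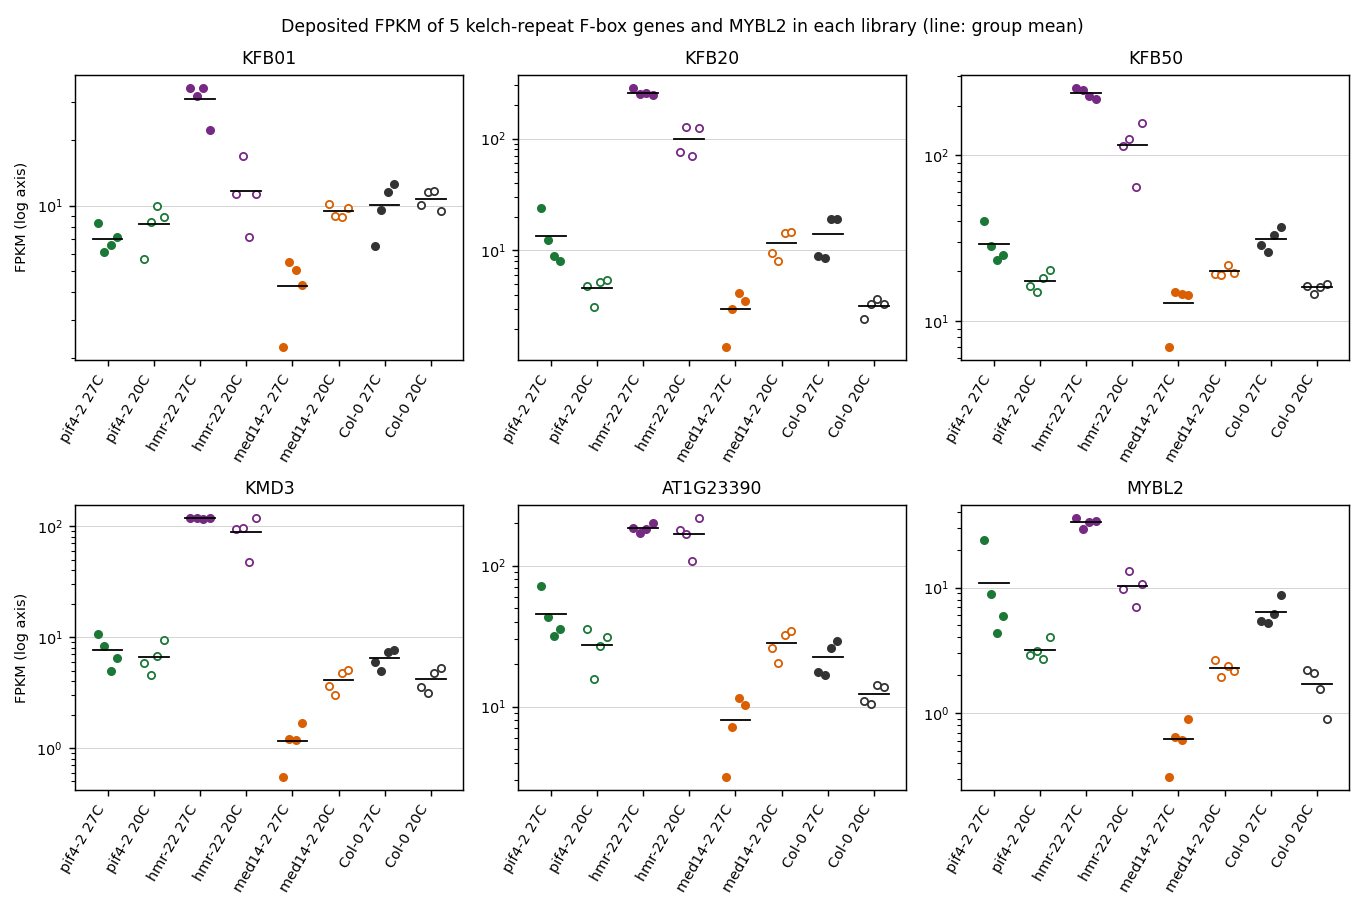
Deposited FPKM (y axis, log scale) of the 5 kelch-repeat F-box genes and MYBL2 in the 32 libraries by group (x axis, filled points 27°C, open points 20°C, line the group mean of 4). All 6 genes are lower at 27°C than at 20°C in the med14-2 means, and KFB20 averages 258 FPKM in hmr-22 and 13.9 FPKM in Col-0 at 27°C.

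Called genes of the other lists were the following, with hmr-22 given for the laccases and MYB4 only. In hmr-22 against Col-0, 24.0% of all tested genes were called lower at 27°C and 28.0% at 20°C. Of 4 other flavonol glycosylation genes, UGT89C1, a flavonol rhamnosyltransferase, fell with warmth in pif4-2, med14-2 and Col-0 (log2 -1.40, -1.30 and -1.61), and RHM1, which makes UDP-rhamnose, in pif4-2 (log2 -1.09), and UGT73C6, a flavonol glucosyltransferase, was higher in pif4-2 than Col-0 at 27°C (log2 1.92). Of 4 other anthocyanin enzymes, 3AT1 and AT1G03495 were lower in med14-2 than Col-0 at 20°C (log2 -2.04 and -2.31), and SCPL10 and BGLU10 were higher in pif4-2 than Col-0 at 27°C (log2 1.54 and 1.13) and rose with warmth in pif4-2 (log2 1.27 and 1.02). Of 9 tested lignin and sinapate enzymes, CCoAOMT7 fell with warmth in Col-0 (log2 -1.43), responded more positively in med14-2 (log2 difference 1.19) and was higher in pif4-2 than Col-0 at 27°C (log2 1.54), a direction called in 3.38% of all tested genes. In the same list SNG1, which makes sinapoylmalate, responded less positively to warmth in med14-2 (log2 difference -1.28 ± 0.28), with 71.0 ± 22.1 FPKM at 27°C and 81.7 ± 11.6 FPKM at 20°C against 82.5 ± 5.79 and 36.2 ± 6.73 FPKM in Col-0, and was higher than in Col-0 at 20°C (log2 1.12). Of 5 tested lignin polymerisation genes, LAC4, a laccase, and PRX72, a peroxidase, were higher in med14-2 than Col-0 at 27°C (log2 1.24 and 1.35), PRX72 also responded more positively to warmth there (log2 difference 0.94), and LAC4, LAC11 and LAC17, all laccases, were lower in hmr-22 than Col-0 at 27°C (log2 -2.42, -2.88 and -2.45). Of 4 tested MYB genes of a list on repressors and activators, MYB4, a repressor of C4H, was lower in hmr-22 than Col-0 at 27°C and 20°C (log2 -2.46 and -3.26), MYB63, an activator of lignin genes, responded more positively to warmth in pif4-2 (log2 difference 1.09), and 0 of 5 seed coat flavonoid genes reached the filter.

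Markers of cell types moved with some of these results. Over 9 xylem wall markers the summed FPKM was 4.22 to 10.8 at 27°C and 4.87 to 11.4 at 20°C in hmr-22 libraries, against 100 to 114 and 54.9 to 66.6 in Col-0, with 6 and 4 of 9 called lower (24.0% and 28.0% of all tested genes), 1 marker at 0 fragments at 27°C in hmr-22, and the lignin genes named above beside them. In med14-2 the summed FPKM was above Col-0, at 131 to 234 at 27°C and 69.3 to 94.3 at 20°C. In pif4-2 the summed FPKM was below Col-0, at 69.5 to 82.3 and 38.8 to 53.9. Over 7 root hair markers it was 10.3 to 20.1 at 27°C and 49.5 to 55.9 at 20°C in Col-0 (5 of 7 called lower, 2.99% of all tested genes), 12.9 to 23.2 and 29.6 to 48.8 in pif4-2 (2 of 7), 16.1 to 32.5 and 38.1 to 49.7 in med14-2 (1 of 7), and 0.36 to 1.38 and 5.29 to 7.5 in hmr-22 (3 of 7, with 1 at 0 fragments at 27°C). Over 7 root endodermis markers it was 42.1 to 68.4 at 27°C and 62.8 to 84.1 at 20°C in Col-0 (2 of 7 lower), and 4, 5 and 1 of 7 fell in pif4-2, hmr-22 and med14-2. Over 7 leaf photosynthesis markers it was 20900 to 34200 at 27°C and 49700 to 55300 at 20°C in med14-2 (3 of 7 lower, 2.83% of all tested genes, CAB1 at -2.65), and 41200 to 46600 and 39500 to 49400 in Col-0 (0 of 7 called by limma or voom). These sums are unscaled. After scaling, RBCS1A and RBCS1B also fell in Col-0 by limma (log2 -0.77 and -0.91, adjusted p = 7.83e-06 and 5.59e-05), short of the required fold. The other photosynthesis markers changed there by -0.48 to -0.06. Of 9 seed storage protein genes 4 were tested, and 1 was called higher in hmr-22 than Col-0 at 27°C and 1 in med14-2 at 20°C. Of all tested genes, 23.6% and 1.24% were called higher in these comparisons, so the hmr-22 count is near its background. The part of these cell types in the flavonoid, lignin and F-box results was not tested.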

How the data were processed

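Transcripts of whole seedlings were sequenced from strand-specific paired-end mRNA libraries, 4 biological replicates in each of 8 groups. The authors aligned the reads to TAIR10 with Araport11 gene models in CLC Genomics Workbench and deposited FPKM for 27655 genes, with no other per-sample column left out (0). Multiplying the deposited FPKM by exon length and a per-library constant gave whole fragments for 99.22 to 99.28% of values up to 1000 fragments (within 0.05 of a whole number), with 11911240 to 16883322 mapped fragments per library (median 13978348.5).

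FPKM were scaled by trimmed means (30% of ratios and 5% of levels trimmed), 19937 genes at 0.5 FPKM in at least 4 libraries were kept, and log2(FPKM + 0.25) was fitted with limma 3.58.1 in R 4.3.3 (8 group means, trend and robust variance, Benjamini-Hochberg adjustment per comparison). Fold changes on this scale understate the change of low genes. Calls followed the study's thresholds (adjusted p under 0.001, fold 2, larger group mean above 1 FPKM), and differences of the warm response used an adjusted p under 0.05. The comparisons with Col-0 share the same Col-0 libraries. The alternatives were no scaling, nuclear-total and median-ratio scaling, no filter, pseudocounts of 0.1 and 1 FPKM, the replicate number as a block, a fit restricted to the groups compared, voom on the recovered fragments, and each library left out. A fit without hmr-22 was added after the data were seen. Bounds took 3 fragments over a group as the floor, and intervals at 95% cover counting error only. Of 27445 nuclear genes, 27438 had the same start and end in the RefSeq genome from which promoters were read. The scripts were tested on simulated data.

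The members and lists were chosen with earlier results of these data known. The text names all 37 members, up to 4 called genes of any other list with the largest change in the comparison described, and PIF4, HMR and MED14 as a check of the labels.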

Additional observations from a re-analysis of the deposited data

Results flagged for a closer look

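Of 275 groups of 4 libraries tested for a library far from the other 3 (deposited FPKM of each member), 18 had one, and chance gives about 1 in 20. In pif4-2 at 20°C, replicate 1 was low for UGT78D2 (14 FPKM, the others 33.3 to 34.5), LDOX (13.5, the others 36 to 37.3), UGT75C1 (11.7, the others 25.2 to 27.8) and TT8 (0.424, the others 1.68 to 1.9), and replicate 4 for MYB11 (0.39). In hmr-22, replicate 2 at 27°C was low for COMT1 (14.4 FPKM) and UGT78D1 (0.722), and replicate 1 at 20°C was the only one above 0 for DFR (0.21). In the libraries labelled med14-2, replicate 1 at 27°C was low for PAL1 (26.3 FPKM, the others 47.1 to 50.4) and CCR1 (30.1, the others 52.2 to 55.3), replicate 2 at 27°C was high for TT8 (0.113), and replicate 2 at 20°C was high for UGT75C1 (2.86). In Col-0 at 27°C, replicate 1 was high for UGT78D1 (48.7 FPKM) and TT8 (1.29), replicate 2 for MYB111 (5.76) and replicate 4 for 4CL3 (11.7), and at 20°C replicate 3 was low for 4CL2 (9.13) and UGT78D2 (18.4).

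The warm response differed from that of Col-0 by limma for CAD4 (log2 difference 0.65) and MYB11 (-1.19) in pif4-2 and for CAD4 (0.57) in med14-2. In hmr-22 it differed upward for PAL2 (1.09), C4H (1.82), C3H1 (1.20), CCR1 (0.43), CAD4 (0.59), F3'H (1.89), UGT78D2 (1.92), LDOX (1.80), UF3GT (1.73), UGT75C1 (2.00) and 5MAT (1.68). It differed downward there for PAL4 (-0.72), HCT (-0.58), CCoAOMT1 (-1.34), FAH1 (-1.43), COMT1 (-0.46), CAD5 (-0.67) and CHIL (-1.09). CAD4 is the member found in all 3 lists, and these share the Col-0 libraries, in which CAD4 was at 47 ± 2.53 FPKM at 27°C and 97.5 ± 15.9 FPKM at 20°C.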

How the results depend on the processing

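The 120 member values called in the report kept their direction under median-ratio scaling, other pseudocounts, no filter, the block, voom and the fit of only the groups compared, with 2 to 17 of them losing the call; without scaling 35 lost it and 4 more turned, and by nuclear total 19 lost it and 2 more turned. Without scaling the lower calls at 27°C over 20°C were 5 in pif4-2, 3 in hmr-22 and 3 in Col-0, and 6 higher in hmr-22; by nuclear total 3 were higher in hmr-22 and 6 lower in Col-0. Members above Col-0 in hmr-22 fell to 0 at 27°C under both scalings, and to 0 at 20°C under both, median ratios and a pseudocount of 1. In hmr-22 over Col-0, C3H1, CCR1 and UGT78D2 at 27°C turned to -0.16, -0.30 and -0.12 and CAD5 at 20°C to -0.90 without scaling, and CCR1 and CAD5 to -0.08 and -0.61 by nuclear total. Scaling was not tested as a cause. In pif4-2 against Col-0 at 27°C nuclear total gave 1 lower call. In med14-2 against Col-0, the fit of only the groups compared gave 3 lower calls at 20°C and 7 at 27°C, and no scaling, voom and the fit without hmr-22 gave 5 each at 27°C.

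Differences of response called higher in pif4-2 were 0 without scaling and by nuclear total, and 2 in the fit of only the groups compared and without hmr-22. In hmr-22 voom gave 6 higher, and no scaling and nuclear total 2 lower each. In med14-2 no scaling gave 0 higher, nuclear total 4, voom 2, the fit of only the groups compared 6 and that without hmr-22 4, and the last 3 gave 4 lower each. The cause of these changes was not tested.

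The flavonol share of the summed FPKM without the highest member of each branch was 13.7% at 27°C and 21.2% at 20°C in med14-2, 16.1% and 22.1% in Col-0, 21.6% at 20°C in pif4-2 and 13.6% at 20°C in hmr-22. From sums of fragments it was 13.7% and 25.6% in med14-2, 16.4% and 26.0% in Col-0, 10.7% and 14.5% in hmr-22, and 26.2% at 20°C in pif4-2. Where both temperatures are given here, the mean share was lower at 27°C. In hmr-22, without the highest members, single libraries at 27°C and 20°C overlapped.

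With 1 library left out, 100 of the 120 values kept the call under every omission. At 27°C over 20°C, lower calls ranged from 10 to 13 in pif4-2, 7 to 10 in hmr-22, 7 to 7 in med14-2 and 8 to 12 in Col-0, and higher calls stayed at 0, 1, 0 and 0. Against Col-0, lower calls ranged at 27°C from 0 to 0 in pif4-2, 21 to 22 in hmr-22 and 2 to 3 in med14-2, and at 20°C from 0 to 0, 24 to 27 and 3 to 7. Higher calls ranged from 0 to 1 in pif4-2, 3 to 3 in hmr-22 and 0 to 0 in med14-2 at 27°C, and from 0 to 0, 0 to 1 and 0 to 0 at 20°C. Differences of response ranged from 1 to 1 higher and 0 to 1 lower in pif4-2, 9 to 13 and 5 to 8 in hmr-22, and 1 to 1 and 0 to 1 in med14-2. The flavonol share ranged from 15.1 to 19.0% at 27°C and 29.1 to 32.2% at 20°C in pif4-2, 11.7 to 12.9% and 16.6 to 17.1% in hmr-22, 14.6 to 15.6% and 28.7 to 29.2% in med14-2, and 17.9 to 19.1% and 29.1 to 31.1% in Col-0.

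Samples of 1 number were not paired by the labels: all 4 same-number correlations were over 0.1 in 3 of 28 pairs of groups (mean 0.0812, against -0.027 between other numbers). With the replicate number as a block, 6 members were lower in med14-2 at 20°C and 12 responded more positively in hmr-22, and every other count of calls was equal to that without the block. Depth limits the anthocyanin genes in hmr-22, MYB11 and PAP2, which rest on few fragments.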
